A study of Arabidopsis thaliana with 16 samples.

Results

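These results concern 10 protein-coding genes of Arabidopsis thaliana listed as silenced by, or dependent on, the DNA methyltransferases DRM1 and DRM2. They were named by identifier and are SDC, FWA, QQS, MRU1 and its neighbour AT5G35480, with AT5G24240, AT3G32030, AT1G60110, AT1G33850 and AT5G35940. All 10 were found among the 69252 annotated entries of each deposited comparison table, 27652 of which are protein-coding genes. The genes were picked with their values in both comparisons already known, so these values describe the genes and are not evidence that genes of this kind respond. For SDC, FWA and QQS the listing rests on what is known of them, since none of the 3 passed the authors' test in the mutant.

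RNA-directed DNA methylation is a plant pathway in which small RNAs guide DRM2 to matching DNA, where it methylates cytosines in every sequence context. It keeps many transposons and repeats silent, and genes that carry such repeats near their promoters can be silenced with them. FWA, a homeobox gene that delays flowering when it is misexpressed, and SDC, an F-box gene named as a suppressor of the drm1 drm2 cmt3 triple mutant, are textbook cases. At SDC the methyltransferase CMT3 acts alongside the DRM enzymes, and at FWA methylation in the CG context, kept by MET1, maintains silencing once it has been set. QQS is a small gene without known relatives in other species that affects starch content, and its expression is known to vary with DNA methylation.

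The groups compared are whole seedlings grown to day 10 on agar medium with sucrose. They are white-light dd, UV-B-treated Col-0 and white-light Col-0, each with 2 replicates that the labels call biological. The dd line has the T-DNA mutations drm1-2 and drm2-2 in the Columbia-0 ecotype, in every tissue, and Col-0 is the wild type of that ecotype. All groups received 60 mE of white light, and the UV-B group also received 1.5 mE at 315 nm from day 1. The number of seedlings per library is not stated. The other 10 of the 16 samples, UV-B-treated dd and 8 bisulfite libraries among them, were not analysed here.

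Levels are FPKM, sequenced fragments corrected for the length of the transcript and the size of the library, and each group has 1 value pooled over its replicates. The spread between replicates cannot be computed, and the only tests across replicates are those in the authors' deposited tables, where q is a p-value adjusted over all tested entries. Sequencing depth is unknown. Protein-coding genes listed above 0 numbered 22066 in dd, 22174 under UV-B and 23082 in Col-0 in white light. DRM2 had 1.82 FPKM in dd, against 7.09 FPKM in Col-0, and fell in dd (q = 0.0138 in the authors' deposited table). DRM1 was listed at 0.319 FPKM in dd and at 0 in Col-0, and was not tested. Markers of shoots were high in all 3 groups, with summed levels of 25389 to 26667 FPKM over 3 genes. Those of roots summed to 44.2 to 60.5 FPKM over 4 genes. Markers of seeds and of flowers or pollen summed to under 1 FPKM in every group, with CRU3, SESA1 and VGD1 listed at 0 throughout.

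In dd, 6 of the 10 genes rose and 1 fell past q 0.05 in the authors' deposited table. The background in that table is low, with 0.264% of 20416 tested entries higher and 0.157% lower, but the genes were picked on this contrast and the difference from the background says nothing further. The 6 that rose were MRU1, AT5G35480, AT5G24240, AT3G32030, AT1G60110 and AT1G33850, and the 1 that fell was AT5G35940. All 7 had the smallest p in the authors' deposited table, 5e-05, which they share with 67 other entries. SDC and QQS were tested without passing the threshold, and FWA was not tested. The median log2 ratio of dd over Col-0 was 1.85 over the 9 genes above 0 in both groups, beside 0.00 over all tested entries.

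**Figure D1:**
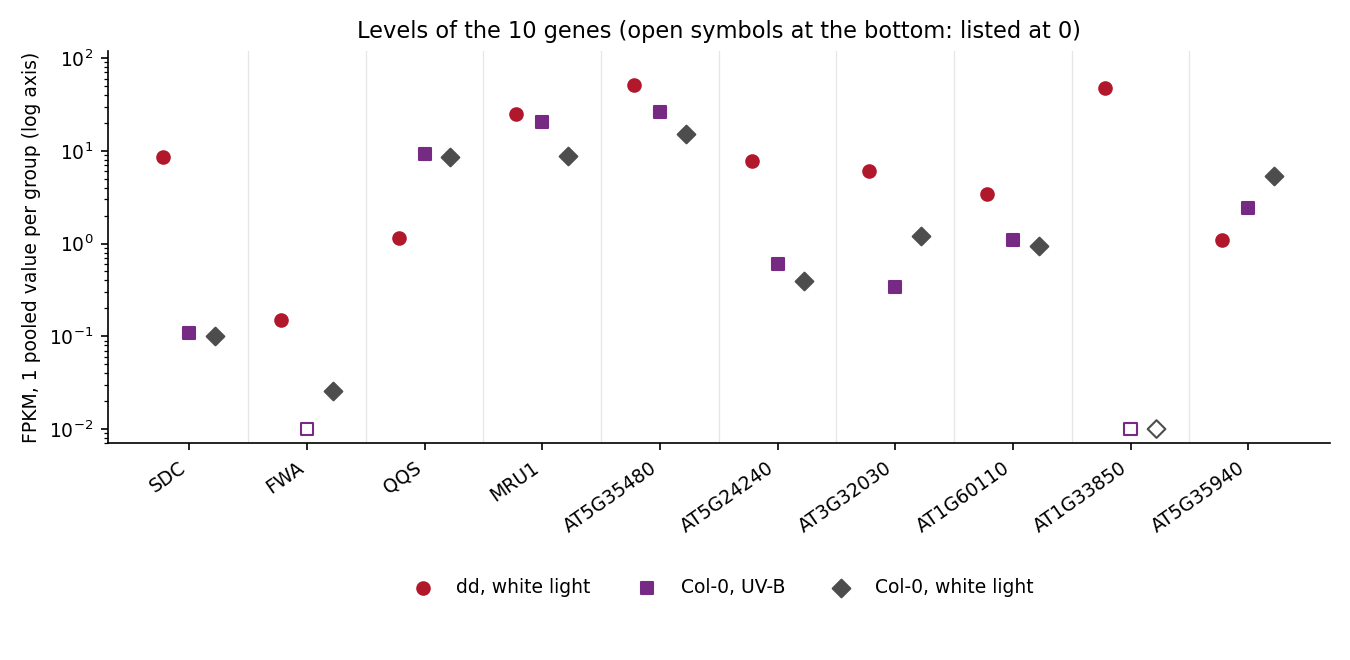
Level of each gene in FPKM on a log axis, with 1 point for the pooled value of each of the 3 groups; open symbols mark groups listed at 0. dd has the highest value for 8 genes and the lowest for QQS and AT5G35940.

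Of the 2 best known silenced genes, SDC had a higher value in dd without a call, and FWA was close to 0 in every group. SDC (AT2G17690, TAIR10 chromosome 2, 7682162 to 7685202; all ranges below are of the same build) was at 8.59 FPKM in dd, 0.110 FPKM in UV-B-treated Col-0 and 0.102 FPKM in white-light Col-0. The value in dd was 84.3 times that in Col-0, a log2 ratio of 6.40 that was the ninth highest of all tested entries above 0 in both groups. It was not called (p = 0.236 in the authors' deposited table). With a pseudocount of 1 FPKM the log2 ratio was 3.12. Its locus range also holds AT2G17695, which is expressed far more strongly at 78.1 FPKM in dd and 69.1 FPKM in Col-0, and the part of reads shared between these entries in the SDC value was not tested. The stranded kit named in the labels can separate the strands, but whether the counting used strand is not stated.

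FWA (AT4G25530, chromosome 4, 13038360 to 13048262) stayed close to 0 in all groups. It had 0.152 FPKM in dd and 0.0259 FPKM in Col-0 in white light, and was listed at 0 under UV-B. The authors' deposited table gives no test for FWA, and a difference between the groups was not detectable at these levels. The range of FWA also holds MSH3, a DNA mismatch repair gene, at 0.641 FPKM in dd and 0.498 FPKM in Col-0. FWA belongs to the class IV homeodomain-leucine zipper factors, most of which act in the epidermis. Of 15 other members, 9 were tested in each comparison and none passed, with log2 ratios between -0.22 and 0.17 in dd (none had an unadjusted p under 0.05 in the authors' deposited table). HDG12 lay furthest from 0 in dd, with 1.56 FPKM, against 1.81 FPKM in Col-0. None of 4 tested flowering genes passed either. FLC, the main repressor of flowering in the vernalization pathway, had 7.24 FPKM in dd and 4.16 FPKM in Col-0 (p = 0.0103, q = 0.677 in the authors' deposited table). FT, which encodes the mobile flowering signal and is the protein that misexpressed FWA is known to bind, had 2.74 FPKM in dd and 1.60 FPKM in Col-0 (p = 0.130 in the authors' deposited table). The core subunits of SCF ubiquitin ligases, into which F-box proteins such as SDC assemble, had log2 ratios between -0.16 and 0.08 in dd, and none of the 4 passed. Over all tested entries, 0.264% were called higher in dd and 0.157% lower. The absence of calls in each of these small lists is close to that share. ASK2, which links F-box proteins to the complex, had 82.1 FPKM in dd and 91.6 FPKM in Col-0.

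MRU1 (AT5G35490, chromosome 5, 13689817 to 13692350) and AT5G35480 (chromosome 5, 13687847 to 13689704) are neighbours with 112 bp between their locus ranges, and both rose in dd. MRU1, named for its higher expression in the methionine-overproducing mutant mto1, had 24.7 FPKM in dd and 8.75 FPKM in Col-0. AT5G35480 had 51.7 FPKM in dd and 15.3 FPKM in Col-0, the highest values among the 10 genes in each of these groups. The log2 ratios were 1.50 for MRU1 and 1.76 for AT5G35480, and both had q = 0.0138 in the authors' deposited table. The genes lie side by side, and whether they changed independently was not tested. Of the genes of methionine synthesis, none of 7 tested passed, and CGS1, the enzyme that the mto1 mutation affects, had 159.9 FPKM in dd and 202 FPKM in Col-0 (p = 0.0224, q = 0.999 in the authors' deposited table). With 0.264% of all tested entries called higher in dd and 0.157% lower, no call among 7 is close to that share.

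A further 4 genes rose in dd from levels that were low or listed at 0 in Col-0, and the sources used here give no function for them. AT5G24240 (chromosome 5, 8225861 to 8234150) had 7.71 FPKM in dd and 0.399 FPKM in Col-0, a 19.4-fold higher level. AT3G32030 (chromosome 3, 13032306 to 13035440) had 6.04 FPKM in dd and 1.22 FPKM in Col-0. AT1G60110 (chromosome 1, 22168424 to 22170803) had 3.42 FPKM in dd and 0.947 FPKM in Col-0. The log2 ratios were 4.27 for AT5G24240, 2.31 for AT3G32030 and 1.85 for AT1G60110. A pseudocount of 1 FPKM lowered them to 2.64, 1.67 and 1.18. AT1G33850 (chromosome 1, 12287913 to 12288210) had 47.8 FPKM in dd and was listed at 0 in Col-0 in both light conditions, so no fold is given. It is the shortest of the 10, with a locus of 298 bp, and FPKM is less certain for short transcripts. All 4 genes had q = 0.0138 in the authors' deposited table. AT1G33850 is 1 of 3 protein-coding genes that rose past q 0.05 in that table while listed at 0 in Col-0, the others being AT1G48953 and AT3G29637.

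QQS and AT5G35940 had lower values in dd. AT5G35940 (chromosome 5, 14090574 to 14093244) had 1.10 FPKM in dd and 5.32 FPKM in Col-0, and fell by 2.28 on the log2 scale (q = 0.0138 in the authors' deposited table). QQS (AT3G30720, chromosome 3, 12343945 to 12350350) had 1.13 FPKM in dd and 8.59 FPKM in Col-0, a 7.57-fold lower level that missed the threshold (p = 0.00245, q = 0.275 in the authors' deposited table). The log2 ratio of QQS was -2.92, which ranked 18th from the bottom among tested entries above 0 in both groups, below that of AT5G35940 at rank 30. Values of the 4 root markers were also lower in dd, with log2 ratios between -0.67 and -0.30 and no call. MYB36, a transcription factor of the endodermis, was lowest among them, with 4.80 FPKM in dd and 7.60 FPKM in Col-0 (p = 0.008, q = 0.600 in the authors' deposited table). Under UV-B, 3 of the 4 root markers also had lower values and 1 a higher one, with log2 ratios between -0.48 and 0.04 and no call. In whole seedlings, fewer cells of a type and less RNA per cell cannot be told apart. The part of root tissue in the lower values in dd was not tested. Of 14 tested genes that act with QQS or in the synthesis or breakdown of starch, none passed in dd. That is close to the share over all tested entries, of which 0.264% were called higher in dd and 0.157% lower. The log2 ratios of the 14 genes lay between -0.13 and 0.19. NF-YC4, the transcription factor subunit that the QQS protein is known to bind, is among them.

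Under UV-B, 2 of the 6 genes tested rose, 1 fell and 3 did not pass q 0.05 in the authors' deposited table. The background there was 2.04% of 20595 tested entries higher and 1.81% lower. The UV-B comparison uses the same Col-0 white-light libraries as the dd comparison, and chance differences in these libraries would enter both in the same direction. MRU1 had 20.7 FPKM under UV-B and 8.67 FPKM in white light, a log2 ratio of 1.26 (q = 0.00249 in the authors' deposited table). AT5G35480 had 26.3 FPKM under UV-B and 15.1 FPKM in white light, a log2 ratio of 0.80 (q = 0.0213 in the authors' deposited table). AT5G35940 had 2.40 FPKM under UV-B and 5.28 FPKM in white light, and fell by 1.14 on the log2 scale (q = 0.00458 in the authors' deposited table).

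The other 7 genes had no call under UV-B. AT3G32030, higher in dd, had 0.337 FPKM under UV-B and 1.21 FPKM in white light, a log2 ratio of -1.84 that missed the threshold (p = 0.0071, q = 0.126 in the authors' deposited table). With a pseudocount of 1 FPKM that ratio was -0.72. QQS had 9.15 FPKM under UV-B and 8.52 FPKM in white light, and AT1G60110 had 1.10 FPKM under UV-B and 0.939 FPKM in white light, both tested without passing. AT5G24240 had 0.609 FPKM under UV-B and 0.395 FPKM in white light and was not tested. SDC, FWA and AT1G33850 were not tested either. Across the 3 groups, 8 genes had their highest listed level in dd, FWA among them at levels too low to compare, and QQS and AT5G35940 had their lowest there. The order dd, UV-B, white light from high to low was held by 5 genes, SDC, MRU1, AT5G35480, AT5G24240 and AT1G60110, with the UV-B and white-light values of SDC close together. Among these 5, only MRU1 and AT5G35480, which lie side by side, were called under UV-B. The genes were picked on dd against Col-0, and both comparisons share the Col-0 white-light libraries, so the choice favours this order. How many other genes hold it was not counted. The difference between dd and UV-B-treated Col-0 was not tested, since the tables compare each group with Col-0 in white light only.

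**Figure D2:**
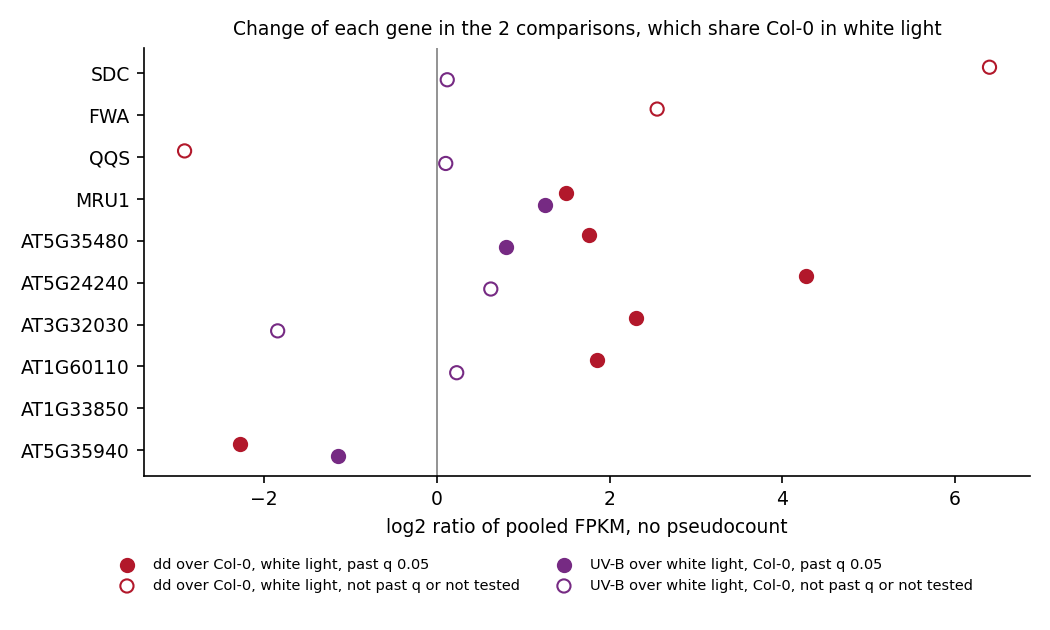
Log2 ratio of each gene for dd over Col-0 (red) and UV-B over white light (purple), with filled points past q 0.05 in the authors' deposited table. In dd and under UV-B, MRU1 lies at 1.50 and 1.26, AT5G35480 at 1.76 and 0.80 and AT5G35940 at -2.28 and -1.14; ratios with a group listed at 0 (AT1G33850 in both comparisons, FWA under UV-B) have no point.

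Of starch genes, GBSS1, a granule-bound starch synthase, rose under UV-B with 123.8 FPKM, against 67.5 FPKM in white light (q = 0.00249 in the authors' deposited table). SEX1, which phosphorylates starch for its breakdown, fell with 28.8 FPKM under UV-B, against 40.7 FPKM in white light (q = 0.0366 in the authors' deposited table). The other 13 of the 15 tested did not pass. No gene of the flowering, methionine, SCF or class IV homeodomain lists passed under UV-B. Over all tested entries, 2.04% were called higher under UV-B and 1.81% lower, so no call in such small lists is close to that share. FT had 3.35 FPKM under UV-B and 1.58 FPKM in white light (p = 0.0217, q = 0.269 in the authors' deposited table). MTO3, an S-adenosylmethionine synthetase gene, had 474 FPKM under UV-B and 356 FPKM in white light (p = 0.00505, q = 0.0994 in the authors' deposited table). HDG12 had 1.26 FPKM under UV-B and 1.80 FPKM in white light (p = 0.0620 in the authors' deposited table).

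Apart from transposons, no other tested entry near the 10 loci was called in dd. Within 50 kb of any of the 10 loci lay 197 other gene entries, transposons left out, of which 103 were tested in dd and none passed (4 had an unadjusted p under 0.05 in the authors' deposited table). Over all tested entries, 0.264% were called higher in dd and 0.157% lower, so the absence of calls among 103 entries is close to that share. The median log2 ratio of the 103 was 0.02, beside 0.00 for all tested entries. The nearest 2 gene entries on each side of the loci comprised 37 genes besides the 10, of which 17 were tested in dd and 16 under UV-B. None of them passed, and the log2 ratios in dd ran from -0.55 for GDU6 to 6.58 for AT1G33840 among those above 0 in both groups. Before and after are given here by chromosome coordinate. STY8, a protein kinase gene 151 bp after the SDC range, had 8.36 FPKM in dd and 9.14 FPKM in Col-0. SLK1, a transcriptional co-regulator gene 1888 bp before the FWA range, had 5.91 FPKM in dd and 5.43 FPKM in Col-0. GDU6, 2121 bp after QQS, had 0.787 FPKM in dd and 1.15 FPKM in Col-0. SOS3, a calcium sensor of salt tolerance whose range starts 533 bp after that of AT5G24240, had 7.18 FPKM in dd and 9.09 FPKM in Col-0. AT5G24230, inside the range of AT5G24240, had 3.63 FPKM in dd and 3.79 FPKM in Col-0. None of these 5 passed q 0.05 in the authors' deposited table.

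Of the tested neighbours above 0 in both groups, 4 had log2 ratios above 1 in size in dd, all higher and without a call, and were named after their values were seen. AT1G33840, 2541 bp before AT1G33850, had 25.7 FPKM in dd and 0.268 FPKM in Col-0 (p = 0.242 in the authors' deposited table). AT2G17660, 8.45 kb before SDC, had 2.72 FPKM in dd and 0.823 FPKM in Col-0 (p = 0.162 in the authors' deposited table). AT3G32047, 25.6 kb after AT3G32030, had 1.39 FPKM in dd and 0.475 FPKM in Col-0 (p = 0.0282 in the authors' deposited table). AT5G35927, 24.1 kb before AT5G35940, had 16.96 FPKM in dd and 4.59 FPKM in Col-0 (p = 0.0337 in the authors' deposited table). A smaller p than for these 4 was listed for AT5G24210 and AT5G24155, which lie 6.14 kb and 44.8 kb before AT5G24240. Their log2 ratios were 0.54 and 0.60. AT5G24210 had 51.8 FPKM in dd and 35.7 FPKM in Col-0 (p = 0.00125, q = 0.178 in the authors' deposited table). AT5G24155 had 12.0 FPKM in dd and 7.90 FPKM in Col-0 (p = 0.01475, q = 0.836 in the authors' deposited table). Under UV-B 6 of 103 tested neighbours rose and none fell, 5.83% of them against the 2.04% of all tested entries that rose, a difference that was not tested, and 2 of the 6 lie near FWA. DTX35, a transporter gene of flavonoid metabolism, had 95.4 FPKM under UV-B and 57.7 FPKM in white light. BETA-OHASE 1, a carotenoid hydroxylase gene, had 67.3 FPKM under UV-B and 42.2 FPKM in white light. The other 4 were AT5G24165, AT5G24210, AT1G33790 and AT5G35970.

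**Figure D3:**
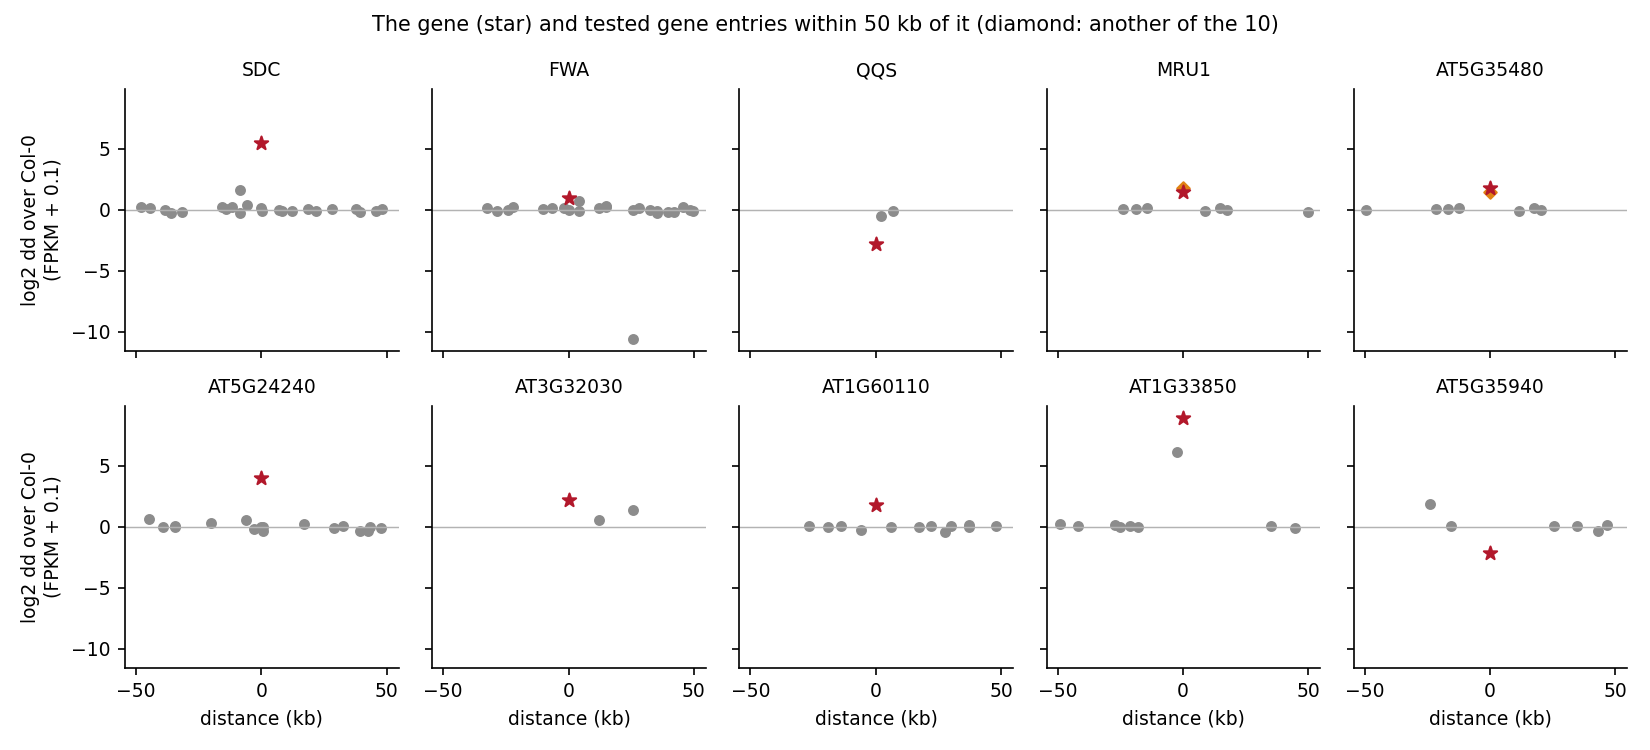
Log2 ratio of dd over Col-0 with 0.1 FPKM added to each value, for each of the 10 genes (star) and the tested gene entries within 50 kb (points; diamonds are others of the 10), by distance in kb. Most neighbours lie near 0, and AT1G33840 stands beside AT1G33850 at 6.13; the lowest point near FWA is the short RNA gene U60.2F, listed at 0 in dd, with 152.6 FPKM in Col-0 and no call.

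Most of the genes lie near transposon entries. Distances to these were not used to pick the genes, though AT5G35480 is listed as the neighbour of MRU1. The list is of genes under DRM control, which is known to act at transposons and repeats, so the choice and the distances are not independent. A transposon entry lay within 500 bp of the locus range for 8 of the 10, against 38.8% of all protein-coding genes, and overlapped it for 5, against 16.8%. Those 5 were QQS, MRU1, AT5G35480, AT5G24240 and AT5G35940. With MRU1 and AT5G35480 counted as 1 locus, a choice made after seeing the data, 7 of 9 loci had an entry within 500 bp and 4 overlapped one. AT3G32030 had one at 91 bp, AT1G33850 at 199 bp and AT1G60110 at 459 bp. The nearest lay 3438 bp from SDC and 18377 bp from FWA. Repeats not listed as transposon entries do not enter these distances, and promoters were not searched for repeats. A locus range can include flanking entries, so an overlap with the range is not always one with the transcript. Within 100 kb the genes had 23 to 160 transposon entries with a median of 121, against a median of 29 for all protein-coding genes. AT3G32030 (160 entries), QQS (157), AT5G35940 (152), MRU1 (149), AT5G35480 (142) and AT1G33850 (100) were above the 90th percentile of protein-coding genes, at 92 entries. FWA, with 23 entries, was below the median. The windows of MRU1 and AT5G35480 overlap, and with this pair counted as 1 locus the median over 9 loci was 100 entries.

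**Figure D4:**
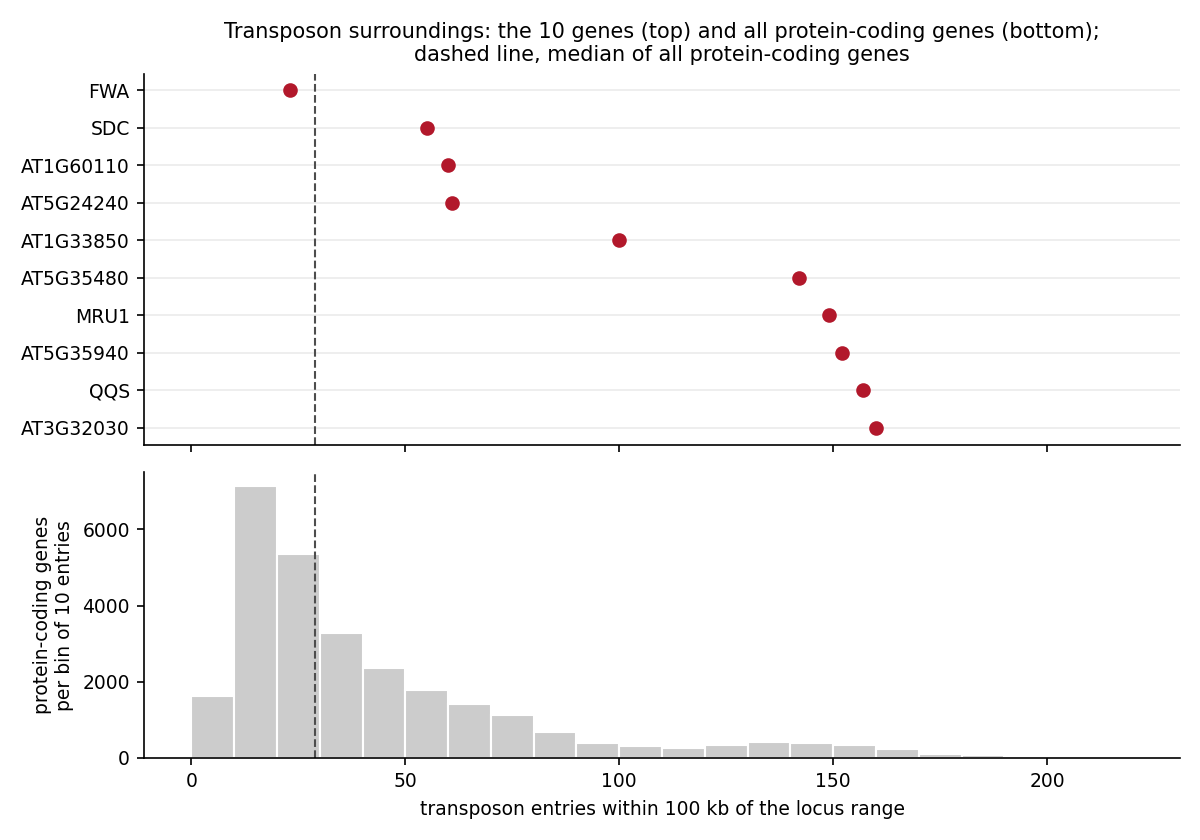
Number of transposon entries within 100 kb of the locus range, for each of the 10 genes (top) and as a histogram of all 27652 protein-coding genes (bottom, bins of 10 entries); the dashed line is their median of 29. FWA lies left of the line and the other 9 genes right of it.

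The deposited lists of raised transposons, 270 entries for dd and 269 for UV-B, hold 2 and 3 entries past q 0.05, so most of the listed increases passed no test. Each list named 6 of the 515 transposon entries within 50 kb of the 10 loci, 4 of them on both lists. That is 1.17% of these entries, against 0.772% of all 34973 transposon entries on the dd list and 0.769% on the UV-B list, a difference that was not tested. Both lists compare with the same Col-0 white-light libraries, so a low value there can place an entry on both. How many entries the full lists share was not counted. Of the listed entries within 50 kb, the one with a call lies beside AT5G35940. It is on both lists, and the call is in dd. AT5G35935, a transposon gene that ends 682 bp before that locus, had 3.14 FPKM in dd and 0.124 FPKM in Col-0 and rose with a log2 ratio of 4.67, or 1.88 with a pseudocount of 1 FPKM (q = 0.0138 in the authors' deposited table), while AT5G35940 fell. Under UV-B AT5G35935 had 0.210 FPKM, against 0.123 FPKM in white light, and was not tested. In the range of MRU1, the transposon AT5TE48725 had 1.29 FPKM in dd, 0.675 FPKM in UV-B-treated Col-0 and 0.231 FPKM in white-light Col-0, the same order as MRU1, without a call (p = 0.171 for dd in the authors' deposited table). Both entries are listed with the same locus range, and MRU1 was far higher, at 24.7 FPKM in dd. The part of reads from MRU1 in the AT5TE48725 values was not tested. AT5TE48740, 2426 bp after MRU1, had 0.0698 FPKM in dd, 0.0642 FPKM under UV-B and 0.0172 FPKM in Col-0 in white light, levels that were not tested. AT3TE53510, 27.4 kb from AT3G32030, had 119.9 FPKM in dd and 10.6 FPKM in Col-0 and did not pass (p = 0.205 in the authors' deposited table). The 5 transposon entries in the range of QQS stayed at or close to 0. AT3G30721 among them was listed at 0.0393 FPKM in dd and at 0 in Col-0, and the other 4 were listed at 0 in all groups.

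Of other genes known to be controlled by DNA methylation, ROS1 alone was called in dd. Of 19 such genes, 9 were tested in dd, none rose and 1 fell, and none passed under UV-B. Over all tested entries, 0.264% were called higher in dd and 0.157% lower, and 2.04% higher under UV-B and 1.81% lower. The median log2 ratio of the 9 in dd was 0.08, beside 0.00 for all tested entries. ROS1, the DNA demethylase gene whose expression is known to depend on methylation near its promoter, was the one that fell, with 0.907 FPKM in dd and 7.02 FPKM in Col-0 (q = 0.0138 in the authors' deposited table). CML41, a calmodulin-like gene with a transposon upstream, had 7.88 FPKM in dd and 4.50 FPKM in Col-0 (p = 0.0118, q = 0.741 in the authors' deposited table). IBM1, a histone demethylase gene with a methylated intron, had 7.10 FPKM in dd and 5.71 FPKM in Col-0 without passing. Imprinted genes of the endosperm, such as FIS2 and AGL36, were listed at 0 in all groups, and MEA and PHE1 had at most 0.155 FPKM. No other DNA methyltransferase gene was called, with CMT3 at 8.41 FPKM in dd and 8.65 FPKM in Col-0 and MET1 at 5.32 FPKM in dd and 6.54 FPKM in Col-0 (p = 0.101 for MET1 in the authors' deposited table).

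The protein-coding genes nearest to SDC in their levels over the 3 groups were AT2G33175, AT1G59920 and AT3G14467, measured as the Euclidean distance between log2(FPKM + 0.1) values. Their distances were 1.27, 1.36 and 1.53 on the log2 scale. AT2G33175 had 8.87 FPKM in dd, 0.326 FPKM under UV-B and 0.239 FPKM in Col-0 in white light. AT1G59920 had 4.89 FPKM in dd and 0.144 FPKM in Col-0, and AT3G14467 had 6.51 FPKM in dd and was listed at 0 in Col-0. None of these 3 passed q 0.05 in the authors' deposited table. Nearest to AT5G35940 were AT1G56680 (distance 0.61), AT1G44160 (0.73) and the cytochrome P450 gene CYP71A16 (0.81). Of these, CYP71A16 fell in dd, with 1.53 FPKM, against 4.41 FPKM in Col-0 (q = 0.0138 in the authors' deposited table), and was also called lower under UV-B. With 3 values per gene, such likeness is a description of levels only.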

How the data were processed

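The RNA-seq kit was a stranded mRNA one, per the labels' protocols. Per the submitters' processing notes, Trimmomatic, HISAT2, Cufflinks, BSMAP and the build TAIR10 were used, with no versions or roles given. The deposited values are FPKM, pooled by the authors to 1 value per group, with the authors' p-values and q-values, per the file headers. Depth is unknown, and no interval or replicate error could be computed. The UV-B table lists the Col-0 values of the dd table divided by 1.01. Each ratio was taken within 1 table, and Col-0 levels set beside all groups come from the dd table unless stated.

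Log2 ratios of dd or UV-B over Col-0 in white light were computed without a pseudocount, with Python 3.11.15, numpy 2.4.6 and pandas 2.3.3. The inverse fold column of the tables was not used. Locus ranges were written 1-based. Names came from RefSeq (TAIR10.1), which held all 10 genes, a name for 4 of them, and all 81 genes of 11 lists. Transposon distances were taken between locus ranges. Distance and ratio functions were tested on simulated data.

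The genes and lists were chosen with earlier results of these data known. Named besides them are DRM1 and DRM2, and some, not all, of the nearest 2 gene entries on each side. Also named are list members past q 0.05 or else the largest change in the list, and the 3 genes nearest to SDC and AT5G35940. Any other gene named, and the 50 kb window, were picked with the values in view. A further 4 lists, of gene families, were not used, because the sources do not annotate the genes they concern. Alternatives were pseudocounts of 1 and 0.1 FPKM, q 0.01, a minimum of 1 FPKM and other transposon distances.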

Additional observations from a re-analysis of the deposited data

How the results depend on the processing

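The genes past the authors' q in dd (6 higher, 1 lower) numbered 0 higher and 0 lower at q 0.01, because the smallest q in that table is 0.0138. Under UV-B, 1 gene was higher at q 0.01 instead of 2, AT5G35480 being lost, and 1 was lower. A minimum of 1 FPKM changed none of these counts. Pseudocounts of 1 and 0.1 FPKM turned no log2 ratio round and lowered those of weakly expressed genes most, FWA to 0.17 and SDC to 3.12 in dd with 1 FPKM. Transposon entries within 2000 bp also gave 8 genes, and those overlapping the range 5. With MRU1 and AT5G35480 counted as 1 locus, an alternative chosen after seeing the data, 7 of 9 loci had an entry within 500 bp. The search for repeats in promoters was not run, as no promoter sequence was used here. No paired analysis was possible because the tables hold pooled values only, and for the same reason no replicate could be left out. Depth cannot be read from FPKM, so how far it limits low levels in any group is unknown.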

Other observations

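Protein-coding genes that were under 0.5 FPKM in Col-0 and at least 5 FPKM in dd numbered 17, of which AT5G24240 and AT1G33850 passed q 0.05 in the authors' deposited table, and SDC was the third of the listed genes among them. The reverse pattern, under 0.5 FPKM in dd and at least 5 FPKM in Col-0, was held by 18 genes, none past q 0.05. Loci under 200 bp made up 3 of the 17 and 12 of the 18. The median number of transposon entries within 100 kb was 61 for the 17 and 12.5 for the 18, against 29 for all protein-coding genes. Both sets hold chloroplast genes, which had 0 transposon entries. They are ATCG00590 in the 17, and ATCG00220, ATCG00700, ATCG00080, ATCG00690 and ATCG00600 in the 18. All 18 were listed at 0 in dd, where fewer protein-coding genes were above 0 than in Col-0. The part of chloroplast genes and of depth in the medians was not tested. Genes high in dd included AT3G29631 at 141.3 FPKM in dd and 0.494 FPKM in Col-0, AT3G28899 at 129.3 FPKM in dd and 0.213 FPKM in Col-0, and AT3G29639 at 35.4 FPKM in dd and 0.406 FPKM in Col-0. They had p = 0.135, 0.246 and 0.0134 in the authors' deposited table, and none passed q 0.05. Under UV-B, the same limits gave 3 genes on and 13 off, none past q 0.05, and all 3 that were on had loci under 200 bp.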
